A study of Homo sapiens with 4 samples.

Results

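The focal adhesion core was followed through 10 genes in MDA-MB-468 breast cancer cells with and without depletion of the adaptor SASH1. These were the CAS adaptors NEDD9 and BCAR1, the kinase PTK2 (FAK) and its partner PXN (paxillin), the talin TLN1, the kindlins FERMT1 and FERMT2, the actin linker VCL (vinculin), and ILK and PARVA (alpha-parvin). They were taken by symbol from a table of 26518 Ensembl genes, and all 10 had a row. Averaged over the libraries, 9 of the 10 reached 1 TPM and were tested, among 14458 tested genes in all. TPM is a transcript abundance corrected for gene length and library size.

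Focal adhesions are the plaques through which integrins in the plasma membrane hold the extracellular matrix on the outside and actin filaments on the inside. Talin and kindlin bind the tails of integrin beta subunits and switch the receptor into its active state, vinculin then ties talin to actin, and the complex of ILK, PINCH and parvin forms a second bridge. FAK and paxillin recruit signalling proteins to the plaque, and CAS adaptors, once phosphorylated by FAK and Src kinases, bind Crk and drive Rac-dependent migration. NEDD9, also called HEF1, is known for its part in the invasion of breast cancer and melanoma cells.

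MDA-MB-468 is an established human line of triple-negative breast cancer, grown in DMEM with 5% serum. The control group (shControl, 2 libraries) carried the control lentivirus pGIPZ-CTRL, and the depleted group (shSASH1, 2 libraries) a lentivirus with SASH1-shRNA. Both were puromycin-selected stable clones; the sources used here do not say how many clones, hairpins or separate cultures stand behind the libraries. P-values therefore reflect the spread among these libraries alone, which may be no more than technical, and a clone's own differences cannot be told apart from those of the hairpin. Rebuilding reads from TPM and gene length gave 20807062 and 24210109 reads per library in shControl and 24386654 and 19576177 in shSASH1. SASH1 was at 15.0 and 13.03 TPM in shControl and at 3.65 and 4.01 TPM in shSASH1 (log2 change -1.63, limma adjusted p = 0.00391). The shSASH1 libraries differed more from each other than the shControl pair did, with a median within-group SD of 0.126 against 0.0507 log2 units over all tested genes. Epithelial markers were present in all libraries, with a summed level of 5716 to 6003 TPM for 6 genes in shControl and 4577 to 5333 TPM in shSASH1, and the part of this difference in the results was not tested. In bulk RNA, fewer cells of a type and less RNA per cell cannot be told apart. Leukocyte markers summed to at most 0.276 TPM in any library, endothelial markers to at most 4.13 TPM. The 6 fibroblast markers summed to 7.12 and 6.34 TPM in shControl and 9.18 and 11 TPM in shSASH1, nearly all of it COL1A1 (6.998 and 6.32 TPM against 8.98 and 10.9 TPM, adjusted p = 0.0557), while COL1A2 and LUM were listed at 0 in all 4 libraries. The part of the COL1A1 difference in the results was not tested.

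NEDD9, TLN1 and FERMT2 were several-fold higher after SASH1 depletion, and VCL and PXN rose by less. In the whole-table fit 5 of the 9 tested members rose and 0 fell at an adjusted p of 0.05. The background was high: 32.0% of all tested genes were called, 18.8% higher and 13.3% lower. At an unadjusted p of 0.05 the same limma fit had 5 members higher and 2 lower (FERMT1 and PARVA), and voom on rebuilt reads called 4 higher and 2 lower. The background was higher there too: of all 14458 tested genes 6695 passed at that unadjusted p, and voom called 5297. The median log2 change was 0.32 over the tested members and 0.056 over all tested genes. The libraries of the groups did not overlap for 8 of the 9 tested members, 5 of them higher and 3 lower in shSASH1, where 73.6% of all tested genes did not overlap. Without shControl replicate 1, and likewise without shControl replicate 2, limma called 0 of 14458 genes. At an unadjusted p of 0.05 3446 and 3326 genes then passed, NEDD9, TLN1 and FERMT2 being the 3 members among them. In these fits the spread comes from the shSASH1 pair alone, and the lone control is assumed to vary like it. Without shSASH1 replicate 1, 7728 genes were called in place of 4630.

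**Figure D1:**
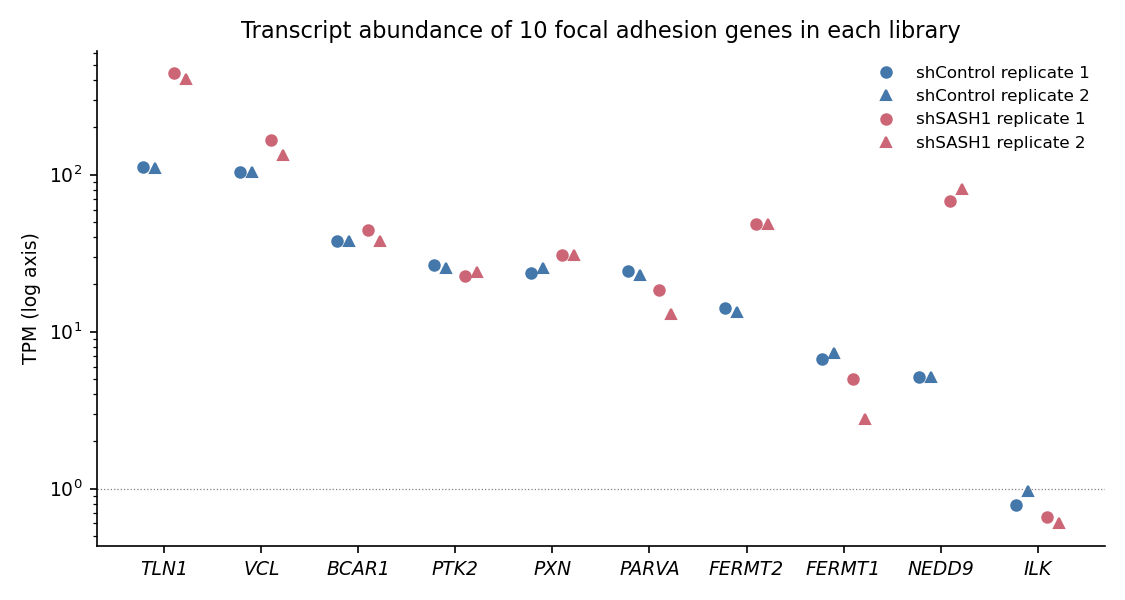
TPM (log axis) of the 10 genes in each of the 4 libraries, blue for shControl and red for shSASH1, circles for replicate 1 and triangles for replicate 2, with a dotted line at 1 TPM. NEDD9 goes from 5.13 and 5.14 TPM to between 67.7 and 80.9 TPM, while ILK stays below 1 TPM in every library.

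The order of the levels shifted. In shControl, TLN1 (mean 111 TPM) and VCL (104 TPM) stood far above BCAR1 (38.0 TPM), followed by PTK2 (26.1 TPM), PXN (24.5 TPM) and PARVA (23.6 TPM), of which PXN and PARVA overlapped between libraries. FERMT2 (13.8 TPM), FERMT1 (7.03 TPM), NEDD9 (5.13 TPM) and ILK (0.872 TPM) came last. In shSASH1, NEDD9 was the third most abundant of the 10 at a mean of 74.3 TPM, behind TLN1 (426 TPM) and VCL (150.4 TPM), and FERMT2 (48.8 TPM) had passed BCAR1 (41.1 TPM). PXN (30.8 TPM), PTK2 (23.3 TPM), PARVA (15.8 TPM), FERMT1 (3.91 TPM) and ILK (0.629 TPM) followed, with no overlap between neighbours in that order.

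NEDD9 (ENSG00000111859, chromosome 6, 11183298 to 11382348, minus strand, hg38), the adaptor whose scaffold carries many tyrosine sites for Crk binding, was at 5.14 and 5.13 TPM in shControl and at 67.7 and 80.9 TPM in shSASH1. Both shSASH1 libraries lay far above both controls. The ratio of means was 14.5, from 5.13 ± 0.00225 to 74.3 ± 9.33 TPM (SD, n = 2 per group), and the log2 change 3.61 ± 0.11 (SE; adjusted p = 0.00151 by limma). This was the 18th highest change among the 14458 tested genes. The control values rest on 312 and 365 rebuilt reads and the shSASH1 values on 4605 and 4392. Changes are differences of log2(TPM + 1), which understates the change of low genes.

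The fit was repeated with another pseudocount, filter, scaling, variance model or centring on chromosome neighbours, 13 settings that used all 4 libraries, and with each library left out. Over those 13 settings the log2 change of NEDD9 ranged from 3.29 to 3.82 and its highest adjusted p was 0.0054 (limma). The nearest tested protein-coding neighbour of NEDD9 on each side did not pass. TMEM170B, with a start 156 kb away, had a log2 change of 0.0075 (adjusted p = 0.958) and ERVFRD-1, 271 kb away, one of 0.21 (adjusted p = 0.470). Within 1 Mb of the NEDD9 start the median over 15 tested protein-coding genes was 0.17, with 4 higher and 1 lower at an adjusted p of 0.05, and none of the 15 exceeded NEDD9. Among them SMIM13, just beyond ERVFRD-1 and named after its value was seen, rose by 0.93. Within 10 Mb the median was 0.35 over 74 genes, of which 30 were called higher and 7 lower, and centred on them NEDD9 was at 3.29 (adjusted p = 0.00209). By the Euclidean distance between profiles over the 4 libraries (log2 deviations from the shControl mean), the genes most like NEDD9 were TPM2 (distance 0.12), which encodes a tropomyosin, KCNS3 (0.13), a modulatory potassium channel subunit, and NEURL3 (0.25). TPM2 went from 16.6 and 17.7 TPM to 199 and 224 TPM; it lies on chromosome 9 within 1 Mb of TLN1. With 4 libraries in 2 groups such likeness reflects mainly the size of the change.

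RefSeq (GRCh38.p14) gives NEDD9 more than 1 start, and gene-level TPM adds their transcripts together, so the values do not say which start gave the rise. The windows of 250 bases before to 50 after the 2 most distant starts are shown because they differ in base composition. Capitals mark the GC box GGGCGG on either strand. The first, chr6:11232619-11232918 (minus strand), has 52.7% G and C and 2 GC boxes; the second, chr6:11382299-11382598 (minus strand), has 42% and 0.
NEDD9 inner start: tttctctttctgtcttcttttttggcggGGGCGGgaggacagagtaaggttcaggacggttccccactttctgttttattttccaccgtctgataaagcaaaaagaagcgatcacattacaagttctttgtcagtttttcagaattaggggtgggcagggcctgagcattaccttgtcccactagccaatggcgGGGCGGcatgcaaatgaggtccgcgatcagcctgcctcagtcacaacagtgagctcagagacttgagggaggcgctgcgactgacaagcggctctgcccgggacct
NEDD9 outer start: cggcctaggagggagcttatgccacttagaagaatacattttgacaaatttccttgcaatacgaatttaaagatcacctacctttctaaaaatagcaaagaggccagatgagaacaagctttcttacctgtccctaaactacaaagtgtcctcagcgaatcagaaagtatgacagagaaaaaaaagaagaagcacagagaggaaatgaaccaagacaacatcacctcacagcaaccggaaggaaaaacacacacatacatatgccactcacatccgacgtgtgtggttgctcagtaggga
A GC box occurs in 45.0% of the 35116 windows of this length in the RefSeq table. Neither window holds the TEAD core GGAATG (14.0% of windows) or the AP-1 site TGANTCA (7.71%), searched on both strands. A lack of these letters in a window says nothing of the factors.

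BCAR1 (p130Cas, ENSG00000050820, chromosome 16, 75228187 to 75268053, minus strand), the founding CAS adaptor, was at 37.9 and 38.1 TPM in shControl and at 44.3 and 37.9 TPM in shSASH1. Here the groups overlapped, shSASH1 replicate 2 sitting at the control level. The log2 change was 0.11 ± 0.097 (SE; limma adjusted p = 0.436), with a 95% interval from -0.15 to 0.36. The NEDD9 to BCAR1 ratio therefore turned over. Log2 ratios of genes are given here as differences of log2(TPM + 1), which makes them smaller in size than ratios of TPM. For NEDD9 to BCAR1 the log2 ratio was -2.66 and -2.67 in shControl and 0.60 and 1.08 in shSASH1, a difference of 3.51. With 2 libraries against 2 the exact two-sided permutation p is 0.333, the smallest this design allows. Of the summed TPM of the 4 CAS genes, NEDD9 made up 10.4% in each shControl library and 55.8% and 64.1% in shSASH1, while BCAR1 fell in share from 77.0% and 77.2% to 36.6% and 30.0%. EFS went from 5.90 and 5.94 TPM to 8.90 and 7.20 TPM (adjusted p = 0.112), and CASS4 was below 0.331 TPM or at it in every library.

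**Figure D2:**
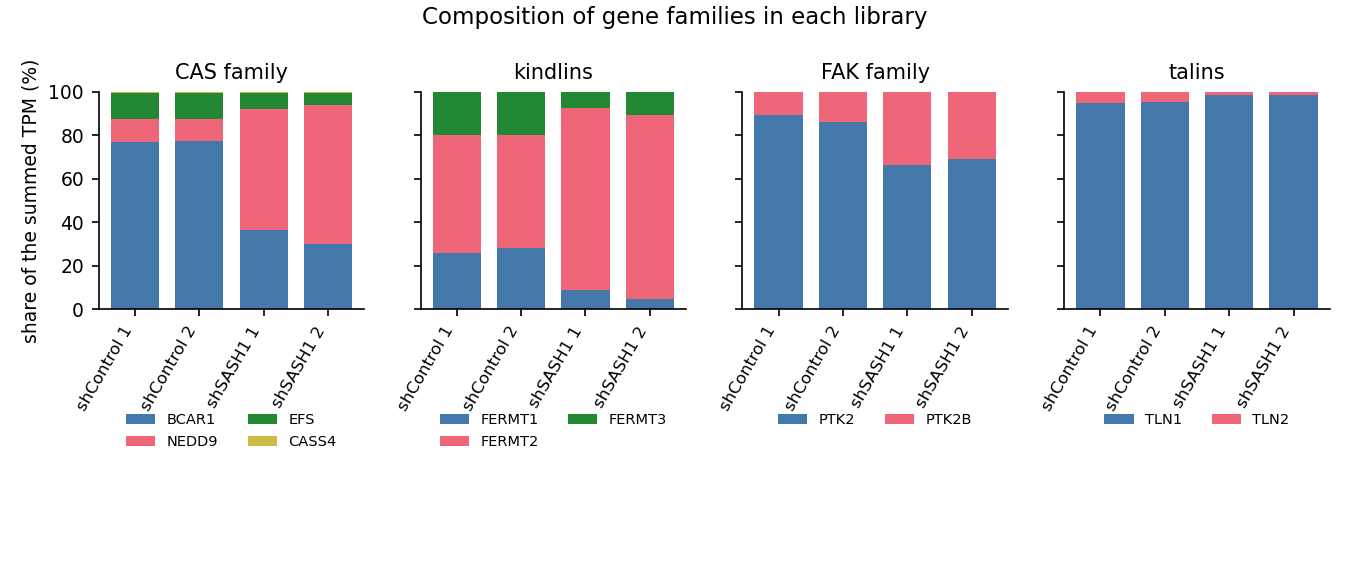
Share of the summed TPM (%) of the members of 4 gene families, 1 stacked bar per library. NEDD9 goes from 10.4% of the CAS family in both shControl libraries to 55.8% and 64.1% in shSASH1, and FERMT2 from 54.4% and 51.8% of the kindlins to 84.0% and 84.8%.

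PTK2 (FAK, ENSG00000169398, chromosome 8, 140657900 to 141002216, minus strand), the kinase that phosphorylates CAS adaptors and paxillin, did not pass. It was at 26.8 and 25.4 TPM in shControl and at 22.5 and 24.1 TPM in shSASH1, a small separation without overlap. The log2 change was -0.16 ± 0.083 (SE; limma adjusted p = 0.207), with a 95% interval from -0.38 to 0.063. PTK2 lies in a stretch of chromosome 8 that was lower as a whole: among 82 tested protein-coding genes within 10 Mb of its start the median log2 change was -0.38, with 40 lower and 1 higher at an adjusted p of 0.05. Centred on the median of these genes in each library, PTK2 turned to 0.26 (adjusted p = 0.0732), and centred on the 6 genes within 1 Mb to 0.22 (adjusted p = 0.111). Its nearest neighbours AGO2 (log2 change 0.15) and DENND3 (-0.13) did not pass either. PTK2 passed in 1 of the 17 other settings, as lower after the length and GC correction (-0.31, adjusted p = 0.0357).

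The FAK paralog PTK2B (PYK2, a calcium-responsive kinase on the other arm of the same chromosome) rose. It was at 3.19 and 4.003 TPM in shControl and at 11.4 and 10.7 TPM in shSASH1, with both depleted libraries above both controls (log2 change 1.40 ± 0.15, adjusted p = 0.00608). The share of PTK2B in the summed TPM of the pair went from 10.6% and 13.6% to 33.6% and 30.7%. The log2 ratio of PTK2 to PTK2B, on the log2(TPM + 1) scale, differed by -1.55 between the groups (exact permutation p = 0.333).

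PXN (paxillin, ENSG00000089159, chromosome 12, 120210439 to 120265771, minus strand), the LIM-domain scaffold that docks FAK, vinculin and the GIT-PIX complex, was at 23.5 and 25.4 TPM in shControl and at 30.9 and 30.7 TPM in shSASH1. The shSASH1 libraries were nearly equal and above both controls. The rise was 1.26-fold (log2 change 0.32 ± 0.079, limma adjusted p = 0.0401). It passed in 4 of the 13 other settings with all libraries and not, for example, after median-of-ratios scaling (0.27, adjusted p = 0.0784) or quantile normalization (0.23, adjusted p = 0.105). Of its exon bases 12.4% lie in exons of other genes, mainly PXN-AS1 on the opposite strand, whose reads cannot be told apart without strand. Of the paralogs, LPXN (leupaxin) was at 8.09 and 8.03 TPM in shControl and 8.46 and 6.73 TPM in shSASH1 (adjusted p = 0.690), and TGFB1I1 (Hic-5) was below 0.389 TPM or at it throughout.

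TLN1 (talin-1, ENSG00000137076, chromosome 9, 35696948 to 35732395, minus strand), the mechanosensitive rod that links integrin tails to actin, was the most abundant member in each library. It was at 112 and 111 TPM in shControl and at 443 and 409 TPM in shSASH1, so both depleted libraries lay well above the controls. The ratio of means was 3.83, from 111 ± 0.586 to 426 ± 24.3 TPM, and the log2 change 1.93 ± 0.064 (SE; adjusted p = 0.00151 by limma). Its paralog TLN2 stood at 6.12 and 5.39 TPM in shControl and at 7.10 and 6.16 TPM in shSASH1 (log2 change 0.17, adjusted p = 0.390). TLN1 made up 94.8% and 95.4% of talin transcripts in shControl and 98.4% and 98.5% in shSASH1.

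The genes around TLN1 rose by about as much as TLN1 did. Within 1 Mb of its start, all 29 other tested protein-coding genes were higher in shSASH1, 28 of them at an adjusted p of 0.05, with log2 changes from 0.49 to 3.55 and a median of 1.74. Of these 29 genes, 6 rose by more than TLN1. Centred on this median in each library, the log2 change of TLN1 was 0.15 ± 0.091 (limma adjusted p = 0.267) and it no longer passed. Over a wider window of 10 Mb either side, with 80 genes and a median of 1.202, the centred change was 0.73 ± 0.10 (adjusted p = 0.0144). This wider window also holds genes that changed little, with a lower quartile of 0.21. TLN1 thus rose together with its stretch of chromosome 9, and a further rise particular to TLN1 cannot be told apart from that of the stretch. The upstream neighbour CREB3, a membrane-bound transcription factor, went from 88.2 and 86.2 TPM to 299 and 320.1 TPM (log2 change 1.81, adjusted p = 0.00153), and GBA2, a glucosylceramidase gene 16.8 kb away, rose by 1.47 (adjusted p = 0.0032).

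TLN1 and CREB3 are read in opposite directions from overlapping starts in GENCODE, where their exons share 61 bases. The RefSeq window of TLN1, chr9:35732146-35732445 (minus strand, GRCh38.p14), is shown because both genes rose and their starts lie together in it. Capitals mark the shared exon bases, positions 51 to 111 from the 5′ end.
TLN1 start: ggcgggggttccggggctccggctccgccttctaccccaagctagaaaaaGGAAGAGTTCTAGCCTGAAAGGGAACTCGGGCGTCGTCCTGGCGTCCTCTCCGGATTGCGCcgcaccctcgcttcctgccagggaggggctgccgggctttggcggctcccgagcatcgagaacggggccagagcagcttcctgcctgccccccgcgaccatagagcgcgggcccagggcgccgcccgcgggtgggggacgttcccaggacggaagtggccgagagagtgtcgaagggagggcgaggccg
The shared bases are 0.685% of the exon bases of TLN1.

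**Figure D3:**
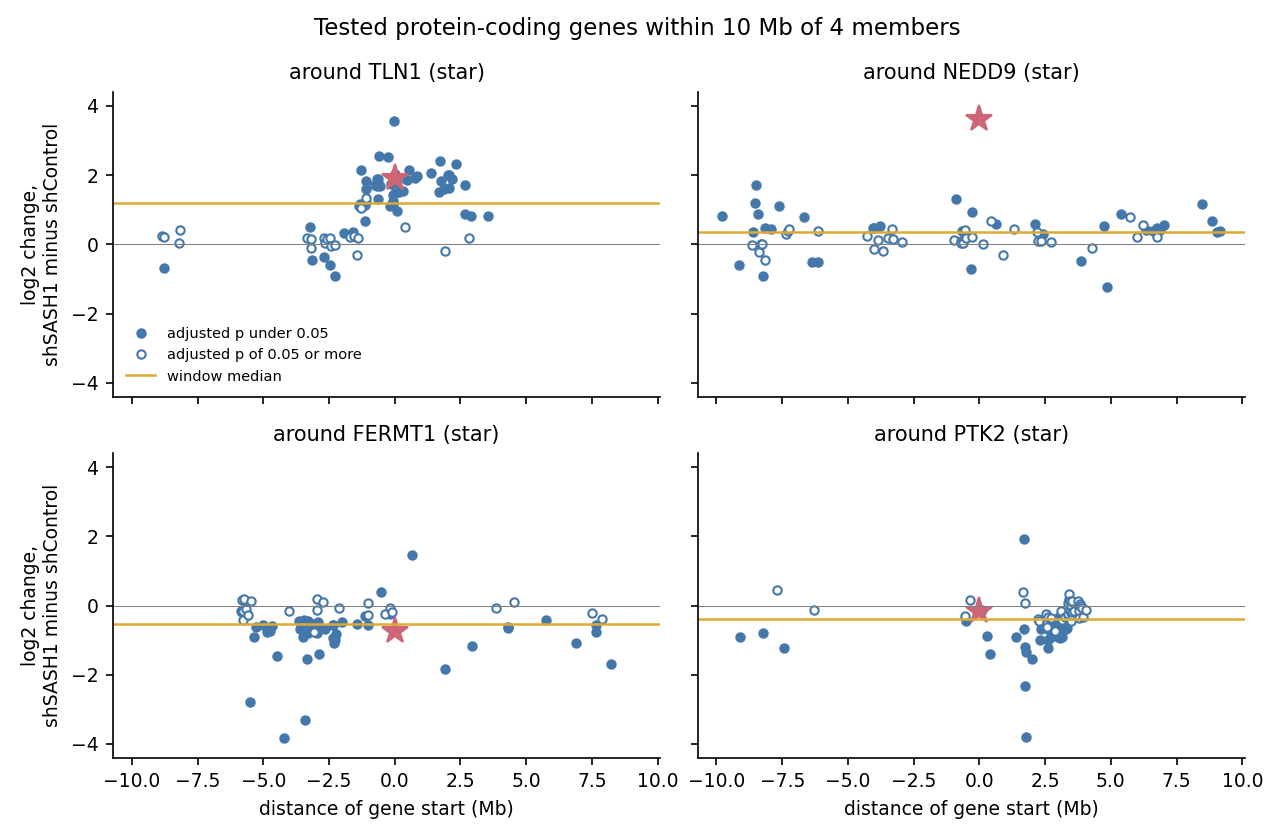
Log2 change of every tested protein-coding gene within 10 Mb of TLN1, NEDD9, FERMT1 and PTK2, against the distance of its start in Mb, filled at an adjusted p under 0.05, with the member as a star and the window median as a line. TLN1 sits within a block of raised genes whose median within 1 Mb is 1.74, and NEDD9 stands above all 74 genes of its window.

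The kindlins moved apart. FERMT2 (kindlin-2, ENSG00000073712, chromosome 14, 52857268 to 52952435, minus strand), the broadly expressed kindlin that also binds ILK and paxillin, was at 14.1 and 13.4 TPM in shControl and at 48.8 and 48.9 TPM in shSASH1. The groups were far apart and the depleted pair nearly equal. The ratio of means was 3.54 and the log2 change 1.75 ± 0.075 (SE, limma adjusted p = 0.00175). Unlike TLN1, its surroundings were near 0: the 9 tested genes within 1 Mb had a median log2 change of -0.021, and the centred change was 1.76 (adjusted p = 0.00285). Over the 13 other settings with all libraries the change ranged from 1.58 to 1.82.

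FERMT1 (kindlin-1, ENSG00000101311, chromosome 20, 6074845 to 6123544, minus strand), the epithelial kindlin whose loss causes the skin-blistering Kindler syndrome, lay lower in shSASH1. It was at 6.75 and 7.31 TPM in shControl and at 5.03 and 2.78 TPM in shSASH1. The groups did not overlap, but the depleted libraries differed from each other by 0.67 log2 units, and the last value rests on 78 rebuilt reads. The log2 change of -0.75 ± 0.26 did not pass (limma adjusted p = 0.0908), with a 95% interval from -1.44 to -0.059. It passed with voom on rebuilt reads (-0.94, adjusted p = 0.0424) and without shSASH1 replicate 1 (-1.09, adjusted p = 0.0102). The 70 tested genes within 10 Mb had a median of -0.54, with 44 lower and 2 higher at an adjusted p of 0.05. Centred on these 70 genes FERMT1 was at -0.22 (adjusted p = 0.580). The 8 genes within 1 Mb had a median of -0.13, and centred on these FERMT1 was at -0.65 (adjusted p = 0.180). The nearest neighbours were CRLS1 (-0.20, adjusted p = 0.303) and BMP2 (1.47, adjusted p = 0.0185), a growth factor gene that went the other way.

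FERMT3, the kindlin of blood cells, was at 5.12 and 5.18 TPM in shControl and at 4.27 and 5.98 TPM in shSASH1 (adjusted p = 0.945). FERMT2 rose from 54.4% and 51.8% of kindlin transcripts to 84.0% and 84.8%. The log2 ratio of FERMT2 to FERMT1, on the log2(TPM + 1) scale, went from 0.97 and 0.80 to 3.05 and 3.72 (difference 2.50, exact permutation p = 0.333). The RefSeq window around the start of FERMT2, chr14:52951001-52951300 (minus strand), is shown as that of a member whose rise stood apart from its neighbourhood. It has 82.0% G and C and 8 matches to the GC box on either strand, some overlapping, in capitals. It holds no TEAD core, AP-1 site or CArG box (the last in 1.29% of windows).
FERMT2 start: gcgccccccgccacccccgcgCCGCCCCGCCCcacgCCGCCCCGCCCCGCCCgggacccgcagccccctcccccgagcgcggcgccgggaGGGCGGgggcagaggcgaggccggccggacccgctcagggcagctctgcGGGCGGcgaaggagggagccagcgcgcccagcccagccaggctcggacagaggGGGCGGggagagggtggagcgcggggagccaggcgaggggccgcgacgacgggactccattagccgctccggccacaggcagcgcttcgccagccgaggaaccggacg

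VCL (vinculin, ENSG00000035403, chromosome 10, 73995193 to 74121363, plus strand) was at 104 TPM in each shControl library, and in shSASH1 at 167 and 134 TPM. Both depleted libraries were above the controls, and they differed from each other by 0.32 log2 units. The rise was 1.45-fold (log2 change 0.52 ± 0.12, limma adjusted p = 0.0339). It passed in 7 of the 13 other settings with all libraries. It failed without a filter (0.52, adjusted p = 0.0576), without a variance trend (0.52, adjusted p = 0.0673), when centred on genes within 1 Mb (0.53, adjusted p = 0.0649), after median-of-ratios scaling (0.46, adjusted p = 0.0676), quantile normalization (0.43, adjusted p = 0.0538) and the length and GC correction (0.37, adjusted p = 0.101). Genes around it were near 0 (median -0.021 over 86 genes within 10 Mb). Of its exon bases 11.1% lie in other genes' exons, mainly those of AP3M1. The related alpha-catenin gene CTNNA1, which serves cell-cell junctions, was at 66.9 and 66.6 TPM in shControl and 70.8 and 74.4 TPM in shSASH1 (adjusted p = 0.198).

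PARVA (alpha-parvin, ENSG00000197702, chromosome 11, 12377185 to 12535356, plus strand), the actin-binding partner of ILK, was at 24.3 and 22.9 TPM in shControl and at 18.6 and 13.03 TPM in shSASH1. Both depleted libraries were lower, and they stood 0.48 log2 units apart. The log2 change of -0.57 ± 0.18 did not pass (limma adjusted p = 0.0728), with a 95% interval from -1.05 to -0.094. It passed in 4 of the 13 other settings with all libraries, among them voom on rebuilt reads (-0.65, adjusted p = 0.0299) and a separate spread per group (-0.57, adjusted p = 0.0438). PARVB was at 0.433 TPM or below and PARVG at 0.118 TPM or below in all libraries, so PARVA made up at least 97.6% of parvin transcripts in each.

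ILK (ENSG00000166333, chromosome 11, 6603708 to 6610874, plus strand), the pseudokinase at the centre of the ILK-PINCH-parvin complex, was listed at 0.783 and 0.962 TPM in shControl and at 0.656 and 0.603 TPM in shSASH1. These values rest on 16, 23, 15 and 11 rebuilt reads and fell under the filter, so ILK was not tested. Of its 3484 exon bases, 78.5% lie in exons of other genes, 2374 of them in TAF10 on the opposite strand. TAF10, a subunit of the general transcription factor TFIID, was itself at only 2.36 to 3.12 TPM. Among protein-coding genes with at least 75% of their exon bases shared, 34 of 277 (12.3%) reached a mean of 1 TPM and the median was 0 TPM. Among those with no shared exon base, 6456 of 10862 (59.4%) did, with a median of 5.46 TPM. In between, 77.6% did with above 0 and under 50% of bases shared (median 13.4 TPM). With 50% to under 75% shared it was 55.4% (median 1.29 TPM), and TAF10, at 51.2%, falls there. The part of shared exons in the level of ILK was not tested, and how shared reads were counted is not given in the sources used here. Its partners LIMS1 (PINCH1) and RSU1 were well covered: LIMS1 was at 46.8 and 47.2 TPM in shControl and 48.2 and 47.6 TPM in shSASH1 (adjusted p = 0.748), and RSU1 at 56.0 and 54.6 TPM and at 49.0 and 42.9 TPM (adjusted p = 0.0818).

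**Figure D4:**
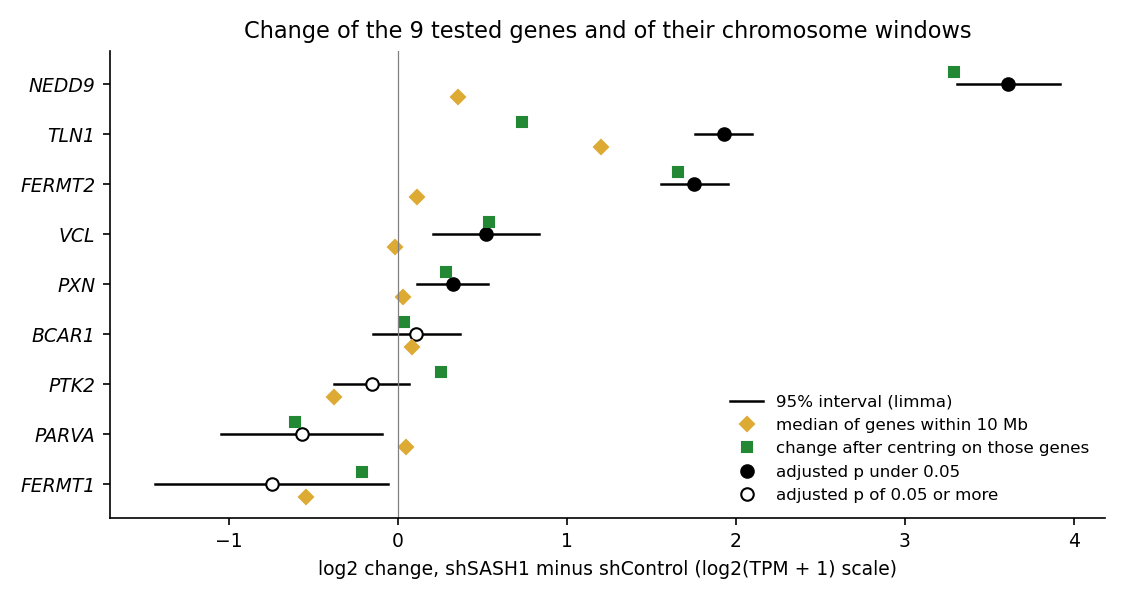
Log2 change (shSASH1 minus shControl, log2(TPM + 1) scale) of the 9 tested members with 95% intervals (black, filled at an adjusted p under 0.05), the median change of genes within 10 Mb (yellow) and the change after centring on those genes (green). TLN1 drops from 1.93 to 0.73 on centring, whereas NEDD9 (3.29) and FERMT2 (1.66) keep most of their change. Centred on genes within 1 Mb, which is not drawn, TLN1 is at 0.15, NEDD9 at 3.35 and FERMT2 at 1.76.

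Beyond the members, transcripts of many of the proteins that tie adhesions to actin rose. Of 29 tested actin linkers and LIM proteins of adhesions 16 rose and 0 fell (limma), against 18.8% and 13.3% of all tested genes. At an unadjusted p of 0.05, 17 were higher and 1 lower, where 6695 of all 14458 tested genes passed in either direction. With voom on rebuilt reads 15 rose and 1 fell, against 2748 and 2549 of all 14458. The median log2 change over the 29 was 0.43. SORBS2 (an adaptor of the vinexin family, log2 change 1.88), the PDZ-LIM proteins PDLIM1 (1.43) and PDLIM5 (1.10) and filamin FLNA (0.75) had the largest changes among the called genes of this list. SORBS2 was at 0.219 and 0.263 TPM in shControl and 3.05 and 4.15 TPM in shSASH1, so it passed the filter on low values only through the shSASH1 libraries. FLNA went from 898 and 919 TPM to 1749 and 1338 TPM, the last of these below the third. PDLIM1 went from 54.1 and 54.8 TPM to 141 and 157 TPM. Centred on genes within 10 Mb, 11 of the 29 rose and 1 fell, against 1909 and 1715 of all 14458 tested genes. FLNA did not pass there (0.54, limma adjusted p = 0.0507). Centred on genes within 1 Mb, 12 rose and 1 fell, against 1816 and 1592 of all 14458, and FLNA passed (0.57, adjusted p = 0.0477). The LIM protein gene FHL3, called higher at 0.54 without centring, was at -0.21 when centred within 1 Mb (adjusted p = 0.107). Of the 12 that rose, TES, LPP, PDLIM5 and PALLD had fewer than 5 such neighbours. They kept their uncentred values, so this centring did not test them. FHL3 was singled out after its values were seen.

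Among 25 tested partners of CAS and FAK, 8 rose and 1 fell (limma), with a median of 0.19, against 18.8% and 13.3% of all tested genes. At an unadjusted p of 0.05, 9 were higher and 3 lower, where 6695 of all 14458 tested genes passed in either direction. With voom 6 rose and 2 fell, against 2748 and 2549 of all 14458. The Src-family kinase LYN (log2 change 1.86) rose from 6.53 and 5.95 TPM to 19.4 and 32.6 TPM. PAG1 (1.25), the membrane adaptor that brings the Src inhibitor CSK, and the phosphatase PTPN12 (0.60), which acts on p130Cas, rose too, and the PI3-kinase regulatory subunit PIK3R1 (-0.72) fell from 24.1 and 24.0 TPM to 14.4 and 14.0 TPM. PAG1 was at 0.634 and 0.595 TPM in shControl and 2.54 and 3.17 TPM in shSASH1, and passed the filter only through the latter. Centred on genes within 1 Mb, PTPN12 was at 0.24 and no longer passed (adjusted p = 0.120). Of 11 paxillin, GIT and PIX partners 2 rose, ASAP2 (0.41) and GIT1 (0.32), and 2 fell, PTPRA (-0.56) and PAK4 (-0.35). These counts are close to the shares of 18.8% and 13.3% over all tested genes. Of the exon bases of ASAP2, 30.4% lie in exons of other genes, mainly ITGB1BP1, which was at -0.17 (limma adjusted p = 0.0881). None of the 11 rose after median-of-ratios scaling or quantile normalization, and centred on genes within 1 Mb neither GIT1 (0.28, adjusted p = 0.101) nor PAK4 (-0.19, adjusted p = 0.121) passed. PTPRA lies in a lowered stretch of chromosome 20 (median -0.53 within 10 Mb) and was at -0.041 when centred on it (adjusted p = 0.672).

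Of 9 tested regulators of integrin activation 2 rose and 1 fell, with a median of 0.17, close to the shares of 18.8% and 13.3% over all tested genes. At an unadjusted p of 0.05, and with voom, 3 were higher and 3 lower. Of all 14458 tested genes 6695 passed at that unadjusted p, and voom called 2748 higher and 2549 lower. RASSF5 (RAPL, a Rap1 effector) rose by 1.24 and the talin-binding protein KANK2 by 0.58. Of the genes within 1 Mb, 17 of 19 around RASSF5 and 43 of 54 around KANK2 had a log2 change above 0, called or not. Over all tested genes 55.3% did. Centred on the genes within 1 Mb, RASSF5 was at 0.68 (limma adjusted p = 0.0309) and KANK2 at 0.23 (adjusted p = 0.286), which did not pass. SHARPIN, which holds integrins inactive, fell by 0.59 on the log2 scale, or by 0.21 when centred on its window (adjusted p = 0.128), where it did not pass. Of 11 tested integrin subunits 5 rose and 3 fell, against 18.8% and 13.3% of all tested genes. They were led by ITGA2 (1.45) and ITGB6 (1.40) upward and ITGA7 (-1.12) and ITGB8 (-0.90) downward. At an unadjusted p of 0.05, and with voom, 7 subunits were higher and 3 lower. Centred on genes within 10 Mb, 4 rose and 4 fell, against 1909 and 1715 of all 14458 tested genes. Of the exon bases of ITGB6, 20.6% lie in exons of other genes, mainly ENSG00000285155. ITGA7 was at 1.90 and 1.62 TPM in shControl and 0.215 and 0.330 TPM in shSASH1, and passed the filter only through the controls. Among the 7 tested paralogs of the members only PTK2B was called, and of 3 tested partners of ILK none was (limma; 0 higher and 1 lower at an unadjusted p of 0.05, 0 with voom).

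**Figure D5:**
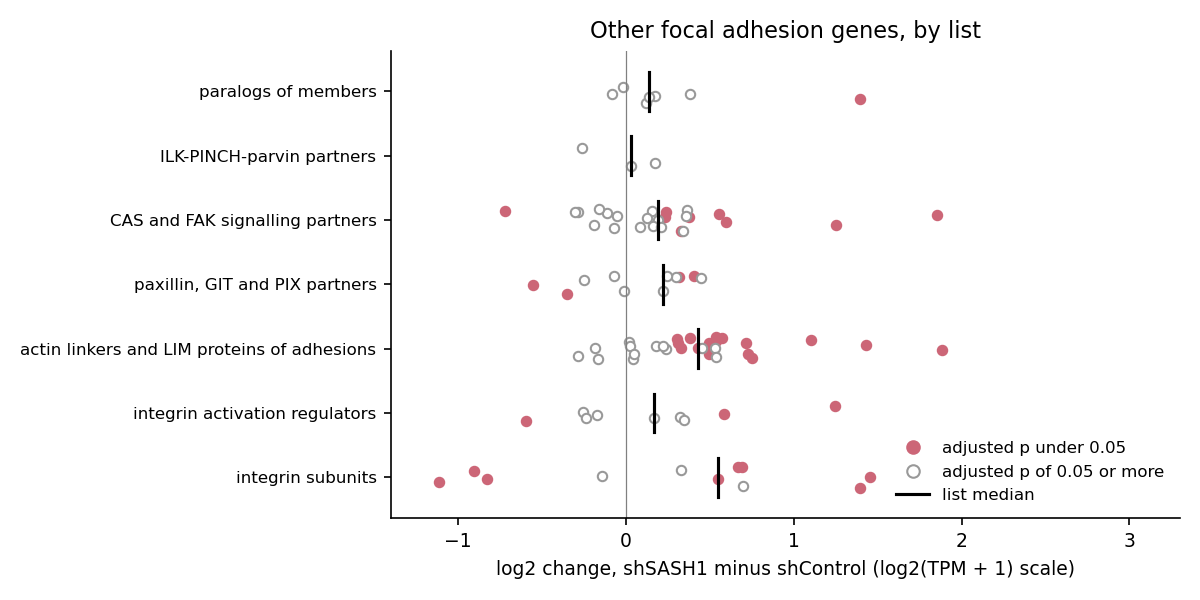
Log2 change (shSASH1 minus shControl) of every tested gene in 7 lists of focal adhesion genes, 1 point per gene with random vertical spread, red at an adjusted p under 0.05, and a black bar at each list's median. Actin linkers and LIM proteins have 16 of 29 genes called, all to the right of 0.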

How the data were processed

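RNA-seq of MDA-MB-468 cells was analysed from TPM values per Ensembl gene, 1 column for each of 4 libraries, as deposited by the authors. Per the labels' protocols, RNA came from TRIzol extraction and libraries from an NEBNext Ultra kit; the submitters' processing notes name STAR, DESeq2 and hg38, with no role for each. Which counter, annotation, gene lengths and strand setting were used is not given in the sources used here.

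Groups were taken from titles. Symbols, positions and exon-union lengths came from GENCODE release 29, which held all 26518 identifiers. Read numbers were rebuilt as TPM times length on a scale per library, and 88.6% to 89.2% of values up to 20 reads came within 0.05 of a whole number. Genes averaging 1 TPM or more were fitted with limma 3.58.1 (R 4.3.3) on log2(TPM + 1) with a variance trend, two-sided, Benjamini-Hochberg over all 14458 genes. The moderated spread had 2.54 prior degrees of freedom, and 95% intervals come from that fit. The procedure was run on simulated data with equal spread in both groups and few changed genes. The real libraries differ in both respects, so that run does not give the error rate here. On rebuilt reads, replicates differed by a chi-square of 2.26 per degree of freedom in shControl and 25.8 in shSASH1, beyond sampling noise, and were kept as separate samples.

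The members and lists were chosen with earlier results of these data known. Named genes were the members, SASH1, up to 4 called genes with the largest change per list, the paralogs compared, the 3 genes nearest to NEDD9, and the nearest neighbours of members whose window median was beyond 0.3. Others, such as EFS, LIMS1, COL1A2 and TAF10, were named after their values were seen. The 17 other settings were quantile normalization or median-of-ratios scaling, 0.1 as pseudocount, a 5 TPM minimum or none, robust moderation, no variance trend, a separate spread per group, a replicate block, voom, centring within 10 Mb or 1 Mb, a length and GC correction, and each of the 4 libraries left out. Centring needed at least 10 tested protein-coding genes within 10 Mb, or 5 within 1 Mb. Genes with fewer kept their uncentred values, PARVA among them at 1 Mb. Joins and plots used Python 3.11.15 (pandas 2.3.3, matplotlib 3.10.9), and exact tests scipy 1.17.1.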

Additional observations from a re-analysis of the deposited data

How the results depend on the processing

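Of the members, NEDD9 and FERMT2 passed in 15 of 17 other settings and failed only where a shControl library was left out (adjusted p 0.0872 to 0.0875). TLN1 passed in 14, and also failed when centred on genes within 1 Mb (0.15). VCL passed in 9, PARVA in 6, PXN in 5, FERMT1 in 2, and PTK2 and BCAR1 in 1 each. The number of members higher was 3 without a filter, with median-of-ratios scaling, with quantile normalization and without a variance trend, 2 when centred on genes within 1 Mb, and 0 to 5 with 1 library left out. The number lower was 1 with a separate spread per group, 2 with voom, 2 with the length and GC correction, and 0 to 2 with 1 library left out. Over all genes, calls with 1 library left out ranged from 0 to 4543 higher and from 0 to 3185 lower. The share of calls that were higher, 58.6%, was 48.4% after quantile normalization and 50.3% after the length and GC correction. Higher calls over all genes, 2712 of 14458 in the main fit, were 2249 of 21574 without a filter and 2153 without a variance trend. They were 2388 with median-of-ratios scaling, 2280 with quantile normalization and 1816 when centred within 1 Mb. Lower calls, 1918 in the main fit, were 1889 with a separate spread per group, 2549 with voom and 2290 with the length and GC correction.

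The replicate block gave 1 member lower (PARVA, adjusted p = 0.0432) and 4 higher, without PXN (adjusted p = 0.082), and 3929 calls in place of 4630. The numbers are only shared: deviations of same-numbered libraries had a correlation of -0.032 across genes.

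Among the genes named by rule, signs turned as follows, PTPRA and GBA2 being the only ones of them that had passed. When centred on genes within 1 Mb these were BCAR1 (-0.090), PTK2 (0.22), PTPRA (0.11), TLN2 (-0.63, adjusted p = 0.0406), ERVFRD-1 (-0.13), TMEM170B (-0.27), GBA2 (-0.32), CRLS1 (0.00066) and DENND3 (0.25). When centred on 10 Mb they were PTK2 (0.26), TLN2 (-0.025), ERVFRD-1 (-0.12), TMEM170B (-0.33), CRLS1 (0.34) and DENND3 (0.28). TMEM170B was also at -0.047 with median-of-ratios scaling, -0.049 with voom, -0.065 after quantile normalization and -0.17 after the length and GC correction, and from -0.039 to 0.054 with 1 library left out. BCAR1 ranged from -0.00407 to 0.22 with 1 library left out. The log2 ratio of PARVA to PARVB differed by -0.18 with the pseudocount of 1 and by 0.95 with a pseudocount of 0.1. Its sign thus depended on the pseudocount. With 1 library left out it differed by -0.39 to 0.026. The setting with genome GC was not run, as no genome was used; transcript GC took its place. That setting and centring within 1 Mb were chosen after seeing the data. Depth limits PARVB and ILK. FERMT1 rests on 78 to 269 rebuilt reads per library, and its shSASH1 libraries differ by 0.67 log2 units.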
